A study of Mus musculus with 13 samples.

Results

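Glutathione synthesis, recycling, transfer and export were examined in mouse lung through 10 genes, matched by symbol in a table of counts for 32544 gene symbols. These were Gclc, Gclm and Gss (synthesis), Gsr and Ggt1 (recycling and breakdown), Gsta3, Gsta4, Gstm1 and Mgst1 (transferases), and Abcc1 (export). All 10 were found, and 9 were among the 12496 genes that passed the filter on low counts. Ggt1, with 0 to 6 counts per library, did not pass.

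Glutathione is a small peptide of glutamate, cysteine and glycine that is the main soluble thiol of most cells and is also abundant in the fluid lining the lung. Glutamate-cysteine ligase, made of a catalytic subunit (Gclc) and a modifier subunit (Gclm), carries out the rate-limiting step of its synthesis, and glutathione synthetase (Gss) adds glycine. Oxidized glutathione is reduced again with NADPH, transferases join glutathione to electrophiles, and transporters carry the conjugates out of the cell. Several genes of this pathway are known targets of NRF2, a transcription factor that binds antioxidant response elements.

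The study asked how mouse tissue responds to excess oxygen. Lung RNA came from wild-type male C57BL/6J mice, bought at 7 weeks of age, which breathed 21% oxygen (Normoxia, 7 libraries) or 80% oxygen (Hyperoxia, 6 libraries) for 5 days. Lungs of both groups were flushed with cold buffered saline before freezing, and Quant-seq, which reads the 3′ end of polyadenylated RNA, was run on whole-tissue RNA. No transgene or deletion separated the groups. The labels do not say that each library is a different mouse, so the p-values measure the spread between these libraries. In RNA from whole lung, fewer cells of a type and less RNA per cell cannot be told apart.

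Total counts ran from 1607111 to 3387736 in the normoxic and from 2029006 to 4540288 in the hyperoxic libraries. At these depths 3 counts, taken as the floor, correspond to 0.656 to 1.84 counts per 1000000 (CPM). This floor covers counting error only, and the deposited counts carry no molecular identifiers. The lung markers Sftpc, Scgb1a1, Ager and Pecam1 were detected in every library. Hyperoxia 1 stood apart, with correlations of 0.721 to 0.833 to the other libraries against 0.854 to 0.967 among those, so the main results are also given without it. The library names carry letters from B to M (5 normoxic and 3 hyperoxic libraries) or from O to S (2 and 3), whose meaning the labels do not give, and values within each letter set are given for the 9 genes tested. Levels below are CPM after TMM scaling, which corrects for composition, and means are given ± SD over the 7 normoxic or 6 hyperoxic libraries. Fold changes are hyperoxia over normoxia with their standard error (SE), and a gene was called at an adjusted p under 0.05 in edgeR's quasi-likelihood test over all 12496 genes.

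The synthesis genes Gclc and Gclm and the exporter gene Abcc1 were higher in hyperoxia, and no transferase among the 10 genes was called. Of the 9 genes tested, 3 were called higher, against 11.8% of all genes tested. The count called lower was 0, against 10.8% of all genes. At an adjusted p under 0.05 the count lower was also 0 with DESeq2 (Gstm1 at 0.0504) and with limma on the deposited log values. At an unadjusted edgeR p under 0.05 it was 1, Gstm1. The median log2 fold change of the 9 genes was 0.34 and that of all genes tested was -0.030. Without Hyperoxia 1, 5 of the 9 genes were called higher, against 15.2% of 12752 genes, with Gsr and Gsta3 added. The count lower was again 0, against 13.3%.

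**Figure D1:**
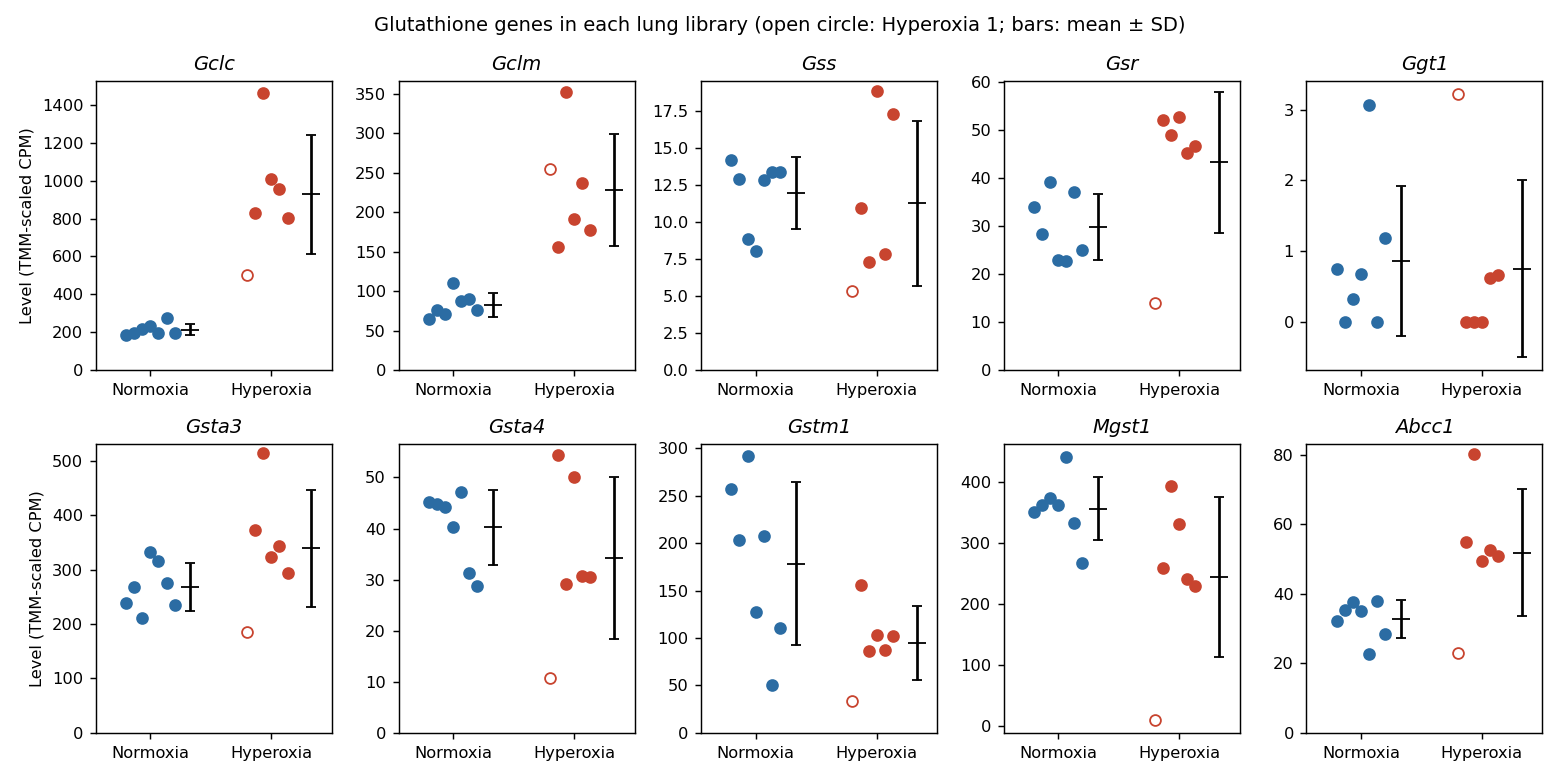
Level of each gene (TMM-scaled CPM, linear axis) in the 7 normoxic (blue) and 6 hyperoxic (red) lung libraries, with Hyperoxia 1 as an open circle and the mean ± SD beside each group. Every hyperoxic library lay above every normoxic one for Gclc (504 to 1461 against 188 to 273) and Gclm (156 to 352 against 65.0 to 110), and Hyperoxia 1 was the lowest hyperoxic library for 8 of the 10 genes.

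Gclc (chr9:77754535-77794485, plus strand, GRCm38), the catalytic subunit of glutamate-cysteine ligase, had the highest fold change of the 9 genes tested. Its lowest, median and highest level was 188, 198 and 273 CPM in normoxia and 504, 895 and 1461 CPM in hyperoxia. The groups did not overlap. Hyperoxia 1 was the lowest hyperoxic library and Hyperoxia 3 the highest. The mean rose 4.32-fold, from 215 ± 30.2 to 928 ± 315 CPM (log2 fold change 2.11, SE 0.20, adjusted p = 3.22e-06). The exact two-sided permutation test over the 1716 ways to divide the libraries gave p = 0.000583, the smallest it can give. The log2 fold change was 2.26 without Hyperoxia 1, 2.22 within the letters B to M and 1.96 within O to S, with adjusted p-values of 7.12e-08, 0.00277 and 6.99e-04.

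Gclm (chr3:122245557-122270732, plus strand), which encodes the modifier subunit, also rose. It lay at 65.0, 76.7 and 110 CPM (lowest, median, highest) in normoxia and at 156, 214 and 352 CPM in hyperoxia. Again the groups did not overlap, but here Hyperoxia 1, at 255 CPM, was the second highest of the hyperoxic libraries. The mean went from 82.3 ± 14.9 to 228 ± 71.0 CPM, 2.77-fold (log2 fold change 1.47, SE 0.19, adjusted p = 5.81e-05, exact permutation p = 0.000583). It was 1.45 without Hyperoxia 1, 1.69 within B to M and 1.26 within O to S. Groups without overlap, with hyperoxia above, were found for 2 of the 9 genes, Gclc and Gclm, against 5.6% of all genes tested. Gclm overlaps a gene model on each strand (Gm6061 and Gm17494), and the sources used here do not say whether counting used strand.

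Gss (chr2:155563181-155592810, minus strand), which completes synthesis, was not called. Its levels were low, with 10 to 79 counts per library, and ran from 8.07 to 14.2 CPM in normoxia (median 12.9) and from 5.36 to 18.8 CPM in hyperoxia (median 9.39). The hyperoxic range enclosed the normoxic one. The mean was 11.9 ± 2.44 CPM in normoxia and 11.3 ± 5.59 CPM in hyperoxia (log2 fold change -0.058, SE 0.29, adjusted p = 0.914, exact permutation p = 0.515), and its sign turned without Hyperoxia 1 (0.085). It was -0.47 within B to M and 0.13 within O to S. Acss2 overlaps Gss on the opposite strand.

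The promoters of the genes set side by side here are shown because the antioxidant response element, to which NRF2 binds, is a known route to Gclc and Gclm transcription. RefSeq promoter windows (GRCm38.p6, from 250 bases before to 50 after a start) were at hand for 6 of the 10 genes, Gclm, Gss, Ggt1, Gsta3, Gstm1 and Mgst1, in 11 windows. They were searched on both strands for the core of that element, TGACNNNGC, as the only motif. It was found in 6 of the 11 windows, of 4 genes (Gclm, Ggt1, Gsta3 and Mgst1), and in 12.4% of all 32851 windows of that length (14.3% of the windows of genes tested). Several of the 6 are alternative starts of Ggt1, so they do not stand for separate genes. Gclm, which rose, and Gss, which was not called, are given over the 250 bases before the start, chr3:122245307-122245556 (plus strand) and chr2:155592811-155593060 (minus strand). The transferases Gsta3 and Mgst1 are given around their match only, at chr1:21240454-21240482 and chr6:138140461-138140489 (both plus strand). Sequences run 5′ to 3′ on the strand of the gene, and capitals mark the match, which in Gclm and Mgst1 stands on the other strand.
Gclm promoter: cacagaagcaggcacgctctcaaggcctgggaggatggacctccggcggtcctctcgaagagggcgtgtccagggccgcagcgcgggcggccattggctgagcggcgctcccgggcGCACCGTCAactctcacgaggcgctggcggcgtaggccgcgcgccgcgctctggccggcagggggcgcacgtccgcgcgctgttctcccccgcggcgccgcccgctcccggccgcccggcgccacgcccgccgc
Gss promoter: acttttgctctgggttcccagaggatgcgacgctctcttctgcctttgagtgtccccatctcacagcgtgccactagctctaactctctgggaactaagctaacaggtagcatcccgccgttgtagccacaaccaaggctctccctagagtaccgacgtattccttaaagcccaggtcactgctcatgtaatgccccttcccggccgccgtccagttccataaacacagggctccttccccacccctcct
Gsta3 match: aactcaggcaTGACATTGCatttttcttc
Mgst1 match: gcggggcttgGCACGGTCAggaggcgggg
The match began 134 bases before the start in Gclm, 121 in Gsta3 and 56 in Mgst1. These letters were not in the windows of Gss and Gstm1. A match describes the sequence and is neither a site nor a cause. Genes with a match were called (Gclm), not called (Gsta3, Mgst1) or not tested (Ggt1).

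Gsr (chr8:33652523-33698163, plus strand), the reductase that returns oxidized glutathione to its reduced form, turned on a single library. It lay at 22.7, 28.3 and 39.2 CPM (lowest, median, highest) in normoxia and at 13.9, 47.9 and 52.8 CPM in hyperoxia. The lowest hyperoxic value was that of Hyperoxia 1, below every normoxic library, while the other 5 hyperoxic libraries lay above every normoxic one. The mean was 29.9 ± 6.88 CPM in normoxia and 43.3 ± 14.7 CPM in hyperoxia, and the gene was not called (log2 fold change 0.54, SE 0.25, adjusted p = 0.137, exact permutation p = 0.172). Without Hyperoxia 1 the hyperoxic mean was 49.2 ± 3.25 CPM (n = 5) and the gene was called (log2 fold change 0.73, SE 0.16, adjusted p = 0.00259). The log2 fold change was 0.42 within the letters B to M, which hold Hyperoxia 1, and 0.62 within O to S (adjusted p = 0.0655). Ggt1 (chr10:75561604-75586200, plus strand), a cell-surface enzyme that starts the breakdown of extracellular glutathione, was near or under the floor. It averaged 0.857 ± 1.06 CPM in normoxia and 0.750 ± 1.25 CPM in hyperoxia, was at 0 in 5 libraries, and a difference was not detectable at this depth (exact permutation p = 0.688).

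Of the 4 transferases, 3 had fitted log2 fold changes below 0 and 1 above, and 0 were called with edgeR, DESeq2 or limma. At an unadjusted edgeR p under 0.05, 1 was lower (Gstm1) and 0 were higher. Gsta3 (chr1:21240589-21265661, plus strand), an alpha-class enzyme, lay at 212, 267 and 332 CPM (lowest, median, highest) in normoxia and at 185, 334 and 515 CPM in hyperoxia. The groups overlapped, and Hyperoxia 1 was again lowest. The mean was 268 ± 43.7 CPM in normoxia and 339 ± 108 CPM in hyperoxia (log2 fold change 0.34, SE 0.19, adjusted p = 0.232). Without Hyperoxia 1 the hyperoxic mean was 370 ± 86.2 CPM (n = 5), and Gsta3 was called (0.48, SE 0.16, adjusted p = 0.0302). It was 0.43 within B to M and 0.32 within O to S, and was not called in either. Gsta4 (chr9:78182774-78209349, plus strand), an alpha-class enzyme known to conjugate the lipid peroxidation product 4-hydroxynonenal, lay at 28.8 to 47.2 CPM in normoxia (median 44.2) and 10.7 to 54.4 CPM in hyperoxia (median 30.6). Its mean was 40.2 ± 7.29 CPM in normoxia and 34.3 ± 15.9 CPM in hyperoxia (log2 fold change -0.22, SE 0.27, adjusted p = 0.609; -0.026 without Hyperoxia 1). The 2 highest libraries of this gene and the lowest were all hyperoxic. Within B to M its log2 fold change was -0.45 and within O to S it was 0.29.

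Gstm1 (chr3:108012255-108017973, minus strand), a mu-class enzyme, varied widely among the normoxic lungs. It lay at 50.2, 203 and 292 CPM (lowest, median, highest) in normoxia and at 33.8, 94.7 and 155 CPM in hyperoxia. All but Normoxia 4, 6 and 7 were above the whole hyperoxic range, and Normoxia 6 was lower than every hyperoxic library except Hyperoxia 1. The mean was 178 ± 85.7 CPM in normoxia and 94.6 ± 39.1 CPM in hyperoxia, and the gene was not called (log2 fold change -0.91, SE 0.36, adjusted p = 0.0846, exact permutation p = 0.0880). It was called lower when Normoxia 6 (-1.06, adjusted p = 0.0201) or Hyperoxia 2 (-1.08, adjusted p = 0.0483) was left out. Within the letters B to M the log2 fold change was -1.21 (adjusted p = 0.103) and within O to S it was 0.27 (adjusted p = 0.509). The difference between the letter sets was 1.52 (SE 0.65, adjusted p = 0.538). Of the 31-base words in the last 500 bases of its transcripts, 31.1% also occur in other genes, led by Gstm3, Gstm2-ps1 and Gm8834, so reads could be split among these.

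Mgst1 (chr6:138140316-138156755, plus strand), a microsomal transferase of membranes, lay at 268, 362 and 442 CPM (lowest, median, highest) in normoxia and at 10.2, 250 and 395 CPM in hyperoxia. Hyperoxia 1, with 19 counts, held the lowest value by far. Of the other 5 hyperoxic libraries, 3 lay below every normoxic one. The mean was 356 ± 51.8 CPM in normoxia and 245 ± 131 CPM in hyperoxia (log2 fold change -0.54, SE 0.44, adjusted p = 0.420). The exact permutation test of the log2 CPM gave p = 0.0233, which is not adjusted for the 10 genes so tested. Without Hyperoxia 1 the levels ran from 230 to 395 CPM and the log2 fold change was -0.27 (SE 0.16, adjusted p = 0.217). It was -0.74 within B to M, -0.18 within O to S and -1.16 (adjusted p = 0.208) for limma on the deposited log values.

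Abcc1 (chr16:14361558-14475737, plus strand), which encodes a transporter that exports glutathione conjugates and oxidized glutathione, was called higher by a small margin. Its lowest, median and highest level was 22.7, 35.0 and 37.9 CPM in normoxia and 23.1, 51.7 and 80.3 CPM in hyperoxia. In 5 of 6 hyperoxic libraries it was above every normoxic one, and Hyperoxia 1 lay within the normoxic range. The mean rose from 32.7 ± 5.50 to 51.9 ± 18.2 CPM, 1.58-fold (log2 fold change 0.66, SE 0.22, adjusted p = 0.0386, exact permutation p = 0.0367). Without Hyperoxia 1 it was 0.82 (adjusted p = 0.00127). Within B to M it was 0.74 and not called (adjusted p = 0.200), and within O to S it was 0.60 (adjusted p = 0.0481). The call was lost with library-size scaling alone (0.58, adjusted p = 0.0675) and when Normoxia 1, 2, 5 or 7 or Hyperoxia 2, 3, 5 or 6 was left out, with adjusted p-values of up to 0.0749.

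**Figure D2:**
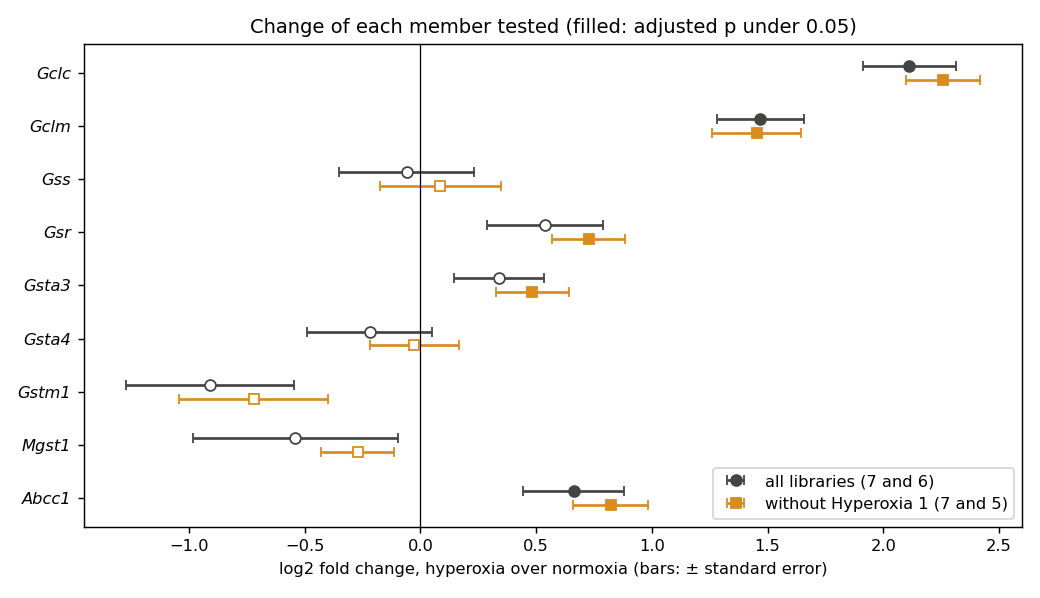
Log2 fold change of hyperoxia over normoxia (± standard error) of the 9 genes tested, over all libraries (dark circles) and without Hyperoxia 1 (orange squares), filled where the adjusted p was under 0.05. Gclc (2.11 and 2.26), Gclm (1.47 and 1.45) and Abcc1 (0.66 and 0.82) are filled in both, and Gsr (0.73) and Gsta3 (0.48) only without Hyperoxia 1.

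Synthesis and transferase genes were then set against each other within each library, as the mean log2 CPM of Gclc, Gclm and Gss and of the 4 transferases. Relative to the normoxic mean, the synthesis genes lay between -0.18 and 0.23 in the normoxic and between 0.62 and 1.41 in the hyperoxic libraries. The transferases lay between -0.50 and 0.31 in normoxia, at -2.39 in Hyperoxia 1 and between -0.36 and 0.12 in the other hyperoxic libraries. So the transferase values of those 5 libraries lay within the normoxic range, while their synthesis values lay above it. The group means differed by 1.10 for synthesis and by -0.50 for transferases, a difference of 1.60 on the log2 scale, with an SD of 0.58 between libraries within groups. Without Hyperoxia 1 these values were 1.19, -0.13 and 1.32. Within the letters B to M they were 1.03, -0.94 and 1.98, and within O to S 1.09, 0.20 and 0.89. The SD of 0.58 includes Hyperoxia 1. Synthesis minus transferases, relative to the normoxic mean, was 3.00 in that library and 0.81 to 1.55 in the other hyperoxic libraries. The synthesis mean takes in Gss, whose own level did not pass the test. With all 19 transferases tested in place of the 4, the difference was 1.48. No test was made of these means, since the genes were chosen with results known.

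**Figure D3:**
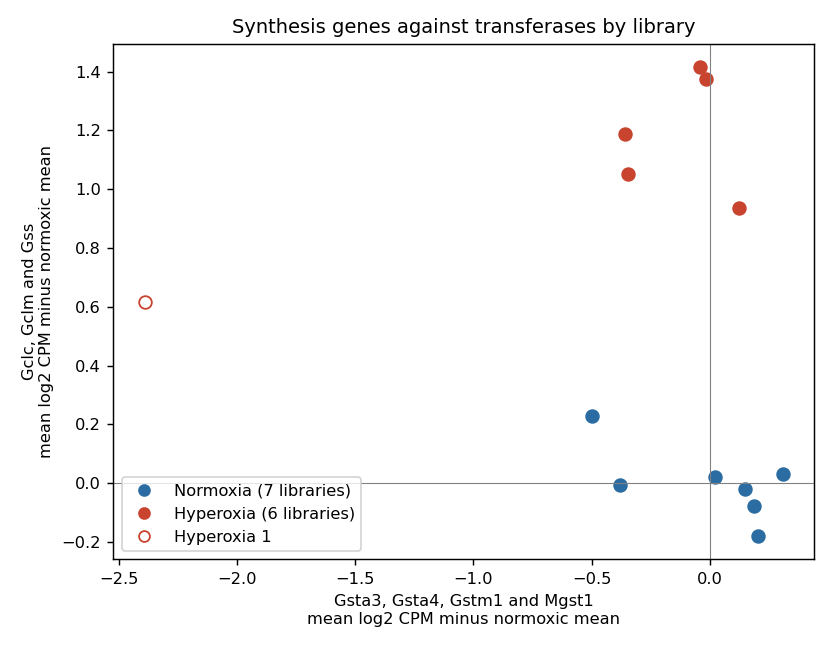
Mean log2 CPM of Gclc, Gclm and Gss (vertical axis) against that of Gsta3, Gsta4, Gstm1 and Mgst1 (horizontal axis), both relative to the normoxic mean, with 1 point for each library. The hyperoxic libraries (red) lie at 0.62 or more on the vertical axis and the normoxic ones (blue) at 0.23 or less, and Hyperoxia 1 (open) lies alone at -2.39 on the horizontal axis.

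Summed levels of marker genes differed between the groups for several lung cell types, though members of a list did not always move together. The counts of markers called stand beside 10.8% lower and 11.8% higher over all genes tested. The summed level of 9 club cell markers, of the secretory airway cells in which several transferases are known to be abundant, was 14985 to 54435 CPM in normoxia and 706 (Hyperoxia 1) to 10876 CPM in hyperoxia. Of the 9, 5 were called lower, among them Scgb1a1, which at a normoxic mean of 33862 CPM made up most of the normoxic sum, and none was at 0 in Hyperoxia 1. That of 8 ciliated cell markers was 287 to 487 CPM in normoxia and 195 to 252 CPM in hyperoxia, with Dynlrb2 at 0 in Hyperoxia 1, and 3 of the 8 were called lower. That of 7 alveolar type 2 markers was 12398 to 23147 CPM in normoxia and 3187 to 6881 CPM in hyperoxia, and 6 of the 7 were called lower. The groups did not overlap for these lists, nor for 6 alveolar fibroblast markers, at 2316 to 2799 CPM in normoxia and 1318 to 1751 CPM in hyperoxia. Of these, Tcf21 and Fgfr4 were at 0 in Hyperoxia 1, and 2 of the 4 tested were called lower. The 6 alveolar type 1 markers went both ways. Their sum was 3349 to 3804 CPM in normoxia and 4259 to 5315 CPM in hyperoxia, but this rise was that of Akap5 (1194 ± 133 to 2734 ± 359 CPM), while Rtkn2 was called lower. Without Akap5 the other 5 summed to 2265 to 2583 CPM in normoxia and 2007 to 2259 CPM in hyperoxia. Sums of 7 endothelial markers overlapped, at 2948 to 5266 and 2076 to 5489 CPM, with Calcrl and Tie1 called lower and Egfl7 higher. The 7 alveolar macrophage markers were at 355 to 441 CPM in normoxia, 183 CPM in Hyperoxia 1, where Ear1 and Fabp1 were at 0, and 482 to 700 CPM in the other hyperoxic libraries. Of these 7, 4 were called lower (Fabp1, Ear1, Ear2 and Krt79) and 1 higher (Mrc1), with a median log2 fold change of -1.13. Without Hyperoxia 1, 3 were called lower (Fabp1, Ear1 and Ear2) and 2 higher (Chil3 and Mrc1), with a median of -1.03. The 6 recruited myeloid markers summed to 208 to 297 CPM in normoxia, 131 CPM in Hyperoxia 1, where Ly6c2 and Retnlg were at 0, and 243 to 454 CPM in the other hyperoxic libraries. Of these 6, Ccr2 and Ly6c2 were called lower and Fn1 higher, with a median log2 fold change of -0.24. The sum of 5 cardiac muscle markers ran from 73.9 to 198 CPM in normoxia and from 4.29 to 166 CPM in hyperoxia, and that of 5 erythroid markers from 194 to 3400 and from 169 to 2863 CPM. The 4 liver markers summed to at most 3.47 CPM in any library. The part of these shifts in the changes of the transferases and of the synthesis genes was not tested.

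The rest of the pathway was described by lists of genes with related roles, 76 genes in all, of which 58 were tested. Of these, 12 were called higher and 5 lower, against 11.8% and 10.8% of all genes tested, and their median log2 fold change was 0.24. The 5 lower lay near that share. Without Hyperoxia 1, 21 of 62 were called higher and 5 lower, against 15.2% and 13.3% of all genes. The 21 take in Gsta1 and Chac1, which did not pass the filter over all libraries. Of the 17 genes called over all libraries, 15 were called without Hyperoxia 1. All 17 kept their direction there and within each letter set, with 6 called within B to M and 10 within O to S. These are parts of the libraries by which the 17 genes were chosen, so the kept direction is no separate test. Among genes that supply precursors, 3 of 4 were called higher. Slc3a2 and Slc7a11 encode the heavy and the light chain of the cystine importer, and Cth encodes cystathionine gamma-lyase, which makes cysteine. Slc3a2 ran from 209 to 351 CPM in normoxia and from 415 to 761 CPM in hyperoxia, without overlap (293 ± 51.3 and 602 ± 152 CPM, log2 fold change 1.04, SE 0.18, adjusted p = 6.36e-04). Slc7a11 ran from 34.3 to 85.1 and from 65.4 to 122 CPM, with overlap (56.6 ± 16.5 and 90.3 ± 20.4 CPM, 0.67, SE 0.20, adjusted p = 0.0244). Its log2 fold change was 1.04 within the letters B to M and 0.19 within O to S. Cth was low and went from 3.69 ± 1.87 to 8.20 ± 1.14 CPM (1.18, SE 0.30, adjusted p = 0.00959).

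Of 7 genes of the gamma-glutamyl cycle tested, by which glutathione is broken down and its amino acids reclaimed, 2 were called higher and 1 lower, against 11.8% and 10.8% of all genes. Without Hyperoxia 1 it was 3 of 8 higher and 1 lower, against 15.2% and 13.3%. The added gene of these 8, Chac1, was not tested over all libraries and passed the filter only once Hyperoxia 1 was left out, so its call is given as a count and supports nothing. Ggt5, a relative of Ggt1, fell from 11.5 ± 2.23 to 4.99 ± 1.97 CPM, without overlap (log2 fold change -1.24, SE 0.26, adjusted p = 0.00280). Lap3, a cytosolic aminopeptidase, rose from 44.5 ± 4.81 to 63.1 ± 6.76 CPM, also without overlap (0.50, SE 0.13, adjusted p = 0.00922). Ggct, gamma-glutamylcyclotransferase, went from 19.6 ± 5.57 to 32.1 ± 9.60 CPM (0.70, SE 0.23, adjusted p = 0.0351; adjusted p = 0.0504 without Hyperoxia 1). Of 8 genes whose products use glutathione as a cofactor, 2 were called higher, against 11.8% of all genes (3 without Hyperoxia 1, against 15.2%). The median log2 fold change of the 8 was 0.11, and 4 of them were above 0. Esd, which hydrolyses S-formylglutathione, ran from 124 to 161 CPM in the normoxic and from 424 to 840 CPM in the hyperoxic libraries, without overlap (2.21, SE 0.15, adjusted p = 2.07e-07). Glrx3, a glutaredoxin of iron-sulfur cluster handling, rose from 122 ± 15.1 to 264 ± 71.2 CPM (1.11, SE 0.16, adjusted p = 1.48e-04).

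Among the 15 other transferases tested, 1 was called higher and 2 lower, against 11.8% and 10.8% of all genes, with a median log2 fold change of -0.18. Without Hyperoxia 1, 3 of 18 were called higher and 2 lower, near the 15.2% and 13.3% of all genes, and the median was 0.032. The call higher was Ptges, a membrane-bound prostaglandin E synthase of the same superfamily as Mgst1, which rose from 19.2 ± 3.73 to 42.2 ± 6.88 CPM without overlap (1.14, SE 0.17, adjusted p = 2.22e-04). The theta-class genes Gstt1 and Gstt3 were lower. Gstt1 fell from 21.4 ± 7.30 to 7.48 ± 6.22 CPM (-1.50, SE 0.43, adjusted p = 0.0194) and Gstt3 from 21.3 ± 8.73 to 9.50 ± 5.69 CPM (-1.14, SE 0.38, adjusted p = 0.0424; adjusted p = 0.0515 without Hyperoxia 1). The tested genes of the same symbol families as the 4 transferases (Gsta, Gstm and Mgst) were not called. Their log2 fold changes were -0.18 for Gsta2, -0.49 for Gstm2, 0.074 for Gstm5, -0.90 for Mgst2 and 0.15 for Mgst3, with adjusted p-values of 0.211 to 0.903. Gsta2 had 2 to 18 counts per library, and 75.5% of the 31-base words in its last 500 bases also occur in other genes. Mgst2 was at 0 in Hyperoxia 1. Gstp1, the pi-class enzyme, averaged 53.8 ± 25.1 CPM in normoxia and 54.1 ± 26.8 CPM in hyperoxia (0.024, SE 0.42, adjusted p = 0.979). It was lowest by far in Normoxia 6 (8.36 CPM) and Hyperoxia 1 (12.3 CPM), and its log2 fold change was 0.24 without Hyperoxia 1, -0.36 within B to M and 1.47 (adjusted p = 0.0438) within O to S. For this gene 84.0% of the words in its last 500 bases are shared with other genes. Of all 29 transferases listed, the 4 included, 19 were tested, with 1 called higher and 2 lower and a median of -0.22 (22 tested, 4 higher, 2 lower and a median of -0.024 without Hyperoxia 1).

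Gsta1, named here after its values were seen, did not pass the filter over all libraries. It was at 0 to 1.49 CPM in normoxia, at 0 in Hyperoxia 1 and at 4.81 to 10.4 CPM in the other 5 hyperoxic libraries. So 5 of the 6 hyperoxic libraries were above every normoxic one. Without Hyperoxia 1 it passed the filter through the libraries where it was high, so its call there, which is in the counts above, is no test. The gene is uncertain, since 94.5% of the words in its last 500 bases also occur in other genes, led by Gm3776, Gsta2 and Gm10639.

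Of 5 other conjugate exporters tested, the count called was 0 in either direction with edgeR and with DESeq2, while limma called 1 lower, and at an unadjusted p under 0.05 the count was 0 higher and 1 lower. Without Hyperoxia 1 edgeR called Abcc5 higher (0.45, adjusted p = 0.0293). Of 9 genes that supply NADPH, the reductant of Gsr, 1 was called higher and 2 lower, against 11.8% and 10.8% of all genes. Without Hyperoxia 1, 4 were called higher (Me1, Taldo1, Pgd and Pgls) and 2 lower, against 15.2% and 13.3% of all genes. Me1, cytosolic malic enzyme, rose from 86.1 ± 9.85 to 152 ± 17.5 CPM, without overlap (0.81, SE 0.12, adjusted p = 2.27e-04). The mitochondrial enzymes Nnt and Idh2 fell without overlap. Nnt, which carries a deletion of several exons in C57BL/6J mice, went from 16.2 ± 3.02 to 9.40 ± 1.45 CPM (-0.78, SE 0.19, adjusted p = 0.00871). Idh2 went from 41.2 ± 6.72 to 23.0 ± 8.39 CPM (-0.83, SE 0.24, adjusted p = 0.0226).

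Of 10 regulators of NRF2 activity tested, 3 were called higher, against 11.8% of all genes, and the median log2 fold change was 0.37. Without Hyperoxia 1, 4 were called higher, with Maff added, against 15.2% of all genes. Sqstm1, an autophagy receptor that binds KEAP1, rose from 389 ± 33.8 to 926 ± 263 CPM without overlap (1.25, SE 0.16, adjusted p = 5.84e-05). Mafg, a small MAF partner of NRF2, rose from 151 ± 15.9 to 233 ± 52.4 CPM (0.63, SE 0.15, adjusted p = 0.00617). Nfe2l2, which encodes NRF2 itself, ran from 189 to 278 CPM in normoxia and from 243 to 577 CPM in hyperoxia, with Hyperoxia 1 highest (0.62, SE 0.18, adjusted p = 0.0236; 0.43 without Hyperoxia 1). Keap1, the adaptor that marks NRF2 for degradation, averaged 117 ± 12.5 CPM in normoxia and 163 ± 70.8 CPM in hyperoxia and was not called (0.48, SE 0.20, adjusted p = 0.0949; 0.22 without Hyperoxia 1, which held 307 CPM).

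**Figure D4:**
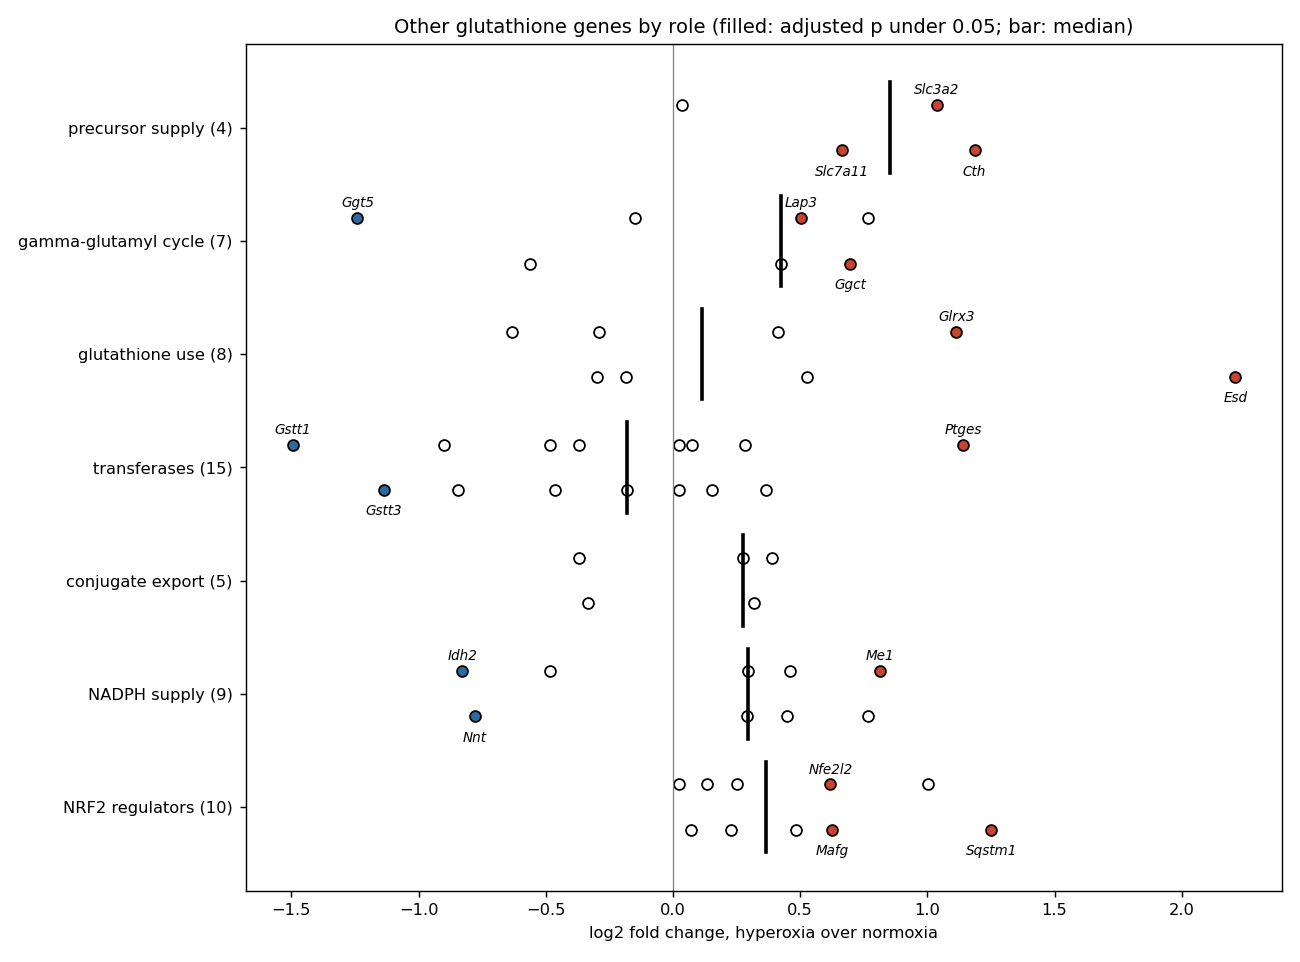
Log2 fold change of hyperoxia over normoxia of 58 other genes of the pathway by role, with the number tested in brackets, the median as a bar, and filled red (higher) or blue (lower) points where the adjusted p was under 0.05. The precursor supply genes have the highest median (0.85) and the transferases the lowest (-0.18), and Esd (2.21) and Gstt1 (-1.50) lie at the ends of the range.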

How the data were processed

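The authors pseudoaligned the Quant-seq reads of 13 lung libraries by kallisto, run through BioJupies, and deposited the counts of each gene symbol as whole numbers, unfiltered and without normalization. They also deposited log10 values, which equal log10 of CPM plus 1 recomputed from the counts to within 4.4e-16. The submitters' processing notes name mm10, kallisto and limma 3.54.2, and the paper's methods name limma with the CPM method but no design. All columns were mapped to samples, with 0 left over.

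The main test was edgeR 4.0.16 in R 4.3.3 (glmQLFit, then glmQLFTest) on counts of the genes that filterByExpr kept, scaled by TMM, with Benjamini-Hochberg adjustment over 12496 genes and a threshold of 0.05. SEs were derived from the fold change and the F statistic. Log2 CPM used a prior count of 2, and exact permutation tests (Python 3.11.15) ran over 1716 divisions. Alternatives were DESeq2 1.42.0, limma 3.58.1 on the deposited log values, scaling by library size only, no filter on low counts, a minimum of 10 counts per library, the letter set as a term, the replicate number as a block, and each library left out in turn. The fits were tested on simulated counts. Libraries of a group differed by more than sampling noise in all 36 pairs (chi-square per degree of freedom of at least 3.79), so none was counted as a duplicate.

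The 10 genes, the other lists and the tests were chosen with earlier results of these data known. Of the other lists, the text names the 3 called genes with the smallest adjusted p in each, every tested gene of the Gsta, Gstm and Mgst families, and Gstp1, Slc7a11, Nfe2l2 and Keap1. Gsta1, Chac1, Abcc5, Taldo1, Pgd, Pgls, Maff and the single marker genes were named after their values were seen. Single-gene values within the letter sets, their interaction, the fit of replicates 1 to 6 without pairing and the settings of the other lists were added after the data were seen. Coordinates are from GENCODE on GRCm38, and promoters from RefSeq.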

Additional observations from a re-analysis of the deposited data

Results flagged for a closer look

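Of 94 groups of libraries examined (genes named above, list means and marker sums), 13 held a library whose gap to its nearest neighbour took an unusually large share of the group's range by Dixon's criterion. Chance flags about 1 in 20 such groups, or 4.7 of 94. Hyperoxia 1 was the library in 9 of the 13. Its log2 level was the lowest of the hyperoxic libraries for Gsr (ratio of gap to range 0.8843), Mgst1 (0.8499), Idh2 (0.746), Mgst3 (0.64) and Gstp1 (0.6356), for the mean of the 4 transferases (0.8075) and for the summed alveolar macrophage markers (0.7217). It was the highest for Keap1 (0.809) and Nfe2l2 (0.6333).

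Normoxia 6 was the lowest normoxic library for Gstm2 (0.6871), Gstp1 (0.5902) and the summed erythroid markers (0.7013). Hyperoxia 2 was the highest hyperoxic library for the erythroid markers (0.6318).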

How the results depend on the processing

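Gclc and Gclm kept their direction and their call under all 23 alternatives, with log2 fold changes of 1.96 to 2.26 and 1.26 to 1.69. Abcc1 stayed above 0 in all 23 and lost its call in 14 of them, with 0.51 (adjusted p = 0.129) for limma on the deposited log values and 0.60 (adjusted p = 0.0514) for genes with at least 10 counts in every library. With single libraries left out it ran from 0.52 to 0.82 (adjusted p 0.00127 to 0.0749), the count of the 9 genes called higher from 2 to 5 (5 without Hyperoxia 1) and the count lower from 0 to 1 (Gstm1, without Hyperoxia 2 or Normoxia 6). The sign of Gss turned without Hyperoxia 1 (0.085), 3 (0.057) or 5 (0.035), in a range of -0.25 to 0.085, and within the letters O to S (0.13). Within O to S the signs of Gsta4 (0.29) and Gstm1 (0.27) also turned, and the difference between synthesis and transferase genes was 0.89 where all libraries gave 1.60. With single libraries left out that difference ran from 1.32 to 1.76, the number of other pathway genes called higher from 9 to 21 (21 without Hyperoxia 1) and lower from 4 to 6. Over all genes tested these 2 counts ran from 1256 to 1934 and from 1049 to 1699, both highest without Hyperoxia 1. The cause of these shifts was not tested.

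Both groups have replicate numbers 1 to 6, but libraries with the same number did not deviate together (correlations of -0.33, 0.27, -0.24, -0.31, -0.068 and -0.14), so the numbers do not pair them. With the replicate block, Gclc (2.05, adjusted p = 0.00121) and Gclm (1.43, adjusted p = 0.00804) were called, and Abcc1 was not (0.58, adjusted p = 0.143). Mgst1 was -0.90 (adjusted p = 0.343), and the difference between synthesis and transferase genes was 1.66. In this fit 7 other pathway genes were called higher and 1 lower, against 703 and 588 of all 12358 genes tested.

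Over all genes the median log2 fold change was -0.030 with TMM, -0.10 when only library size was used and -0.16 for limma on the log values, and 52.3%, 42.7% and 38.8% of the genes called were higher. Depth limits Ggt1, which had 0 to 6 counts per library.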
